A study of Mus musculus with 96 samples.

Results

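Liver macrophages of RevScapTKO mice were compared with those of RevDKO mice in the dark phase, when mice feed. The comparison took the 12 macrophage libraries of these genotypes collected at ZT16 and ZT22, 6 of each genotype, out of 96 RNA sequencing libraries in the series. ZT counts hours after lights on, and the lights went off at ZT12. RevDKO mice (ReverbhDKO in the labels) lacked the REV-ERB genes Nr1d1 and Nr1d2 in hepatocytes, and RevScapTKO mice (Reverb/ScaphTKO) lacked these genes and also Scap in hepatocytes. Both genotypes therefore shared the REV-ERB deletion and differed in Scap. All mice were C57BL/6J males with floxed alleles. Each had received at 8 weeks of age an intravenous virus encoding Cre under the TBG promoter, which is active in hepatocytes, and had then eaten the high fat and sucrose diet D12492i for 4 weeks. Control mice, whose levels are given beside the comparison, had received the virus encoding GFP. The deletion was thus directed to hepatocytes, while the RNA was taken from the macrophage isolate.

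SCAP is the protein that carries the SREBP transcription factors from the endoplasmic reticulum to the Golgi, where they are cleaved and released to the nucleus. SREBP1 chiefly drives genes of fatty acid synthesis and SREBP2 those of cholesterol synthesis, and sterols hold SCAP back through the INSIG proteins. REV-ERBs are clock repressors that restrain lipid synthesis genes in the liver. Liver macrophages, which include the resident Kupffer cells, take up particles and lipoproteins and answer signals from hepatocytes.

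Levels are in RPKTM, reads per kb of transcript scaled to a fixed library total, after quantile normalization by the authors. Changes are RevScapTKO minus RevDKO as log2(RPKTM + 1), so that changes of genes near 0 are understated. A gene was called where limma gave an adjusted p under 0.05 over all 12740 genes tested. The table was quantile normalized, so that each library listed 11373 transcripts at 0 and the sequencing depth is unknown. The precision of each value therefore rests on the spread between libraries, which the study describes as biological replicates.

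Libraries were checked against their labels before any gene was compared. Macrophage genes were present in each of the 12 libraries, with a mean of 1420 RPKTM for Csf1r, the receptor for macrophage colony-stimulating factor, in RevScapTKO and 959 in RevDKO. Clec4f, a Kupffer cell lectin, averaged 2358 and 1537. Hepatocyte genes were higher still. The mean log2(RPKTM + 1) over 19 hepatocyte markers lay between 10.33 and 11.52 in these libraries, above the macrophage marker score (7.18 to 9.11) and the Kupffer marker score (7.51 to 9.44). In the hepatocyte libraries of the same genotypes and times, normalized apart, the hepatocyte score lay between 13.04 and 13.67, the macrophage score between 5.53 and 7.84 and the Kupffer score between 5.84 and 7.83. The isolate thus held RNA of both cell types. The hepatocyte score did not overlap between the genotypes, at 10.81 to 11.52 in RevDKO and 10.33 to 10.8 in RevScapTKO, and its part in the results was not tested beyond a fit that takes it as a covariate. Of the 19 hepatocyte markers 3 were called lower, namely Apoa2, Fgg and Apoc3, with a median change of -0.67 over the list. Of all genes tested 1.10% were called lower. The Fgg call was lost in 5 of the 12 fits that left out 1 library, and the Apoc3 call in 10. The summed level of the list was 92073 to 174506 RPKTM in RevDKO and 71905 to 846636 in RevScapTKO, where Alb dominated the highest library. None of the 14 Kupffer, 10 macrophage, 10 endothelial and 10 stellate markers was called by limma. The dendritic cell score was also apart, in the other direction, at 1.93 to 2.46 in RevDKO and 2.54 to 3.45 in RevScapTKO. Its summed level overlapped (58.6 to 88.9 and 60.0 to 100.5 RPKTM) and none of the 6 markers tested was called, with a median change of 1.06. The other 9 scores overlapped between the genotypes. In bulk RNA, fewer cells of a type and less RNA per cell cannot be told apart.

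**Figure D1:**
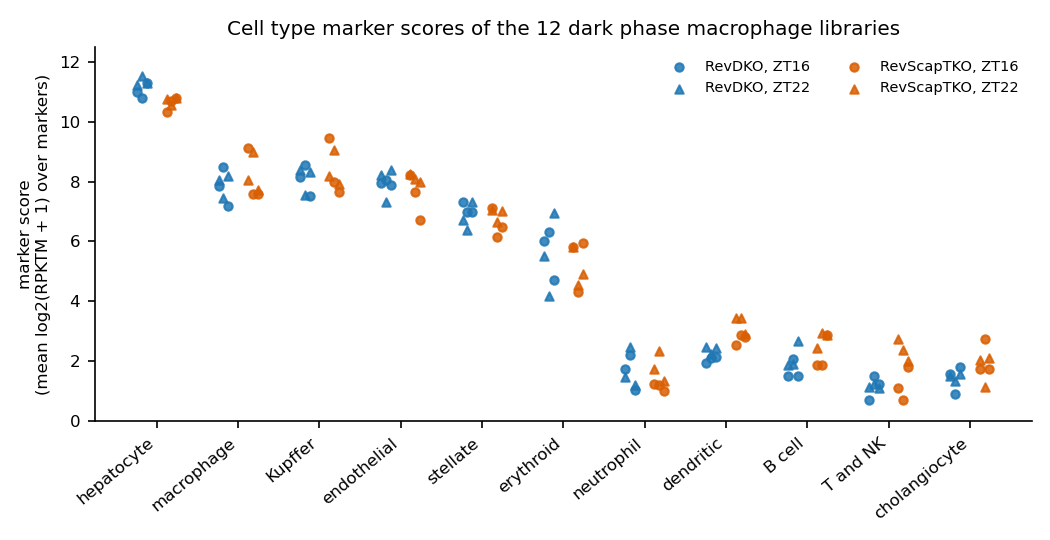
Marker scores (vertical axis, mean log2(RPKTM + 1) over the markers of a cell type) of the 12 dark phase macrophage libraries, by cell type on the horizontal axis. Each point is a library, blue for RevDKO and orange for RevScapTKO, circles for ZT16 and triangles for ZT22. The hepatocyte score, at 10.81 to 11.52 in RevDKO and 10.33 to 10.8 in RevScapTKO, is the highest of the scores in each library.

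A few libraries stood apart. RevDKO at ZT16 replicates 1 and 2 and at ZT22 replicate 2 correlated with the other libraries at 0.654 to 0.783 across genes, against 0.797 to 0.954 among the other 9. They listed at 0, respectively, 60, 79 and 89 genes whose mean over the 12 libraries exceeded 20 RPKTM, against 0 to 15 in the others. Counts are therefore also given without these 3 libraries.

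Of the 12740 genes tested, 154 (1.21%) were called, of which 140 (1.10%) were lower and 14 (0.110%) higher in RevScapTKO. At an unadjusted p under 0.05 there were 1382 genes (10.8%), more evenly split into 756 lower (5.93%) and 626 higher (4.91%). Without the 3 libraries that stood apart 94 genes were called, 82 lower and 12 higher, of which 68 were among the 154. Each of the 154 genes moved in the same direction at ZT16 and ZT22. They were called on these same libraries, so that this is a description. In 110 of the 140 lower genes, and 12 of the 14 higher genes, the highest library of one genotype lay below the lowest of the other, against 174 (1.37%) and 50 (0.392%) of all genes tested. The called falls had a median of -1.46 and the called rises a median of 1.96, while the median over all genes was 0.05. A gene over 5 RPKTM in only 1 genotype could pass the expression filter through that genotype alone, which held for 7 of the lower and 4 of the higher genes.

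With the hepatocyte score as a covariate 24 genes were called, 11 lower and 13 higher, and 13 of these were among the 154. All 154 genes kept their sign in that fit. The median of the 140 falls was then -1.24, and it was -1.49 without the 3 libraries. The SE of the Scd1 change was 0.35 as reported and 0.63 in that fit. The falls that remained called included Scd1 (-5.51), Fasn (-4.13), Srebf1 (-3.19), Tm7sf2 (-3.83), Fads1 (-3.06), Pira2 (-5.31), Sqle (-3.46), Acly (-2.07), Fdps (-3.43) and Slc27a5 (-1.75). The rises that remained called were Mup20 (3.27) and Helz2 (1.79). Without the 3 libraries that stood apart Pira2 (-2.26, adjusted p = 0.154) and Helz2 (1.02, adjusted p = 0.0556) were not called. Apart from Pira2, Slc27a5, Mup20 and Helz2, the genes named here belong to lipid synthesis or its control.

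**Figure D2:**
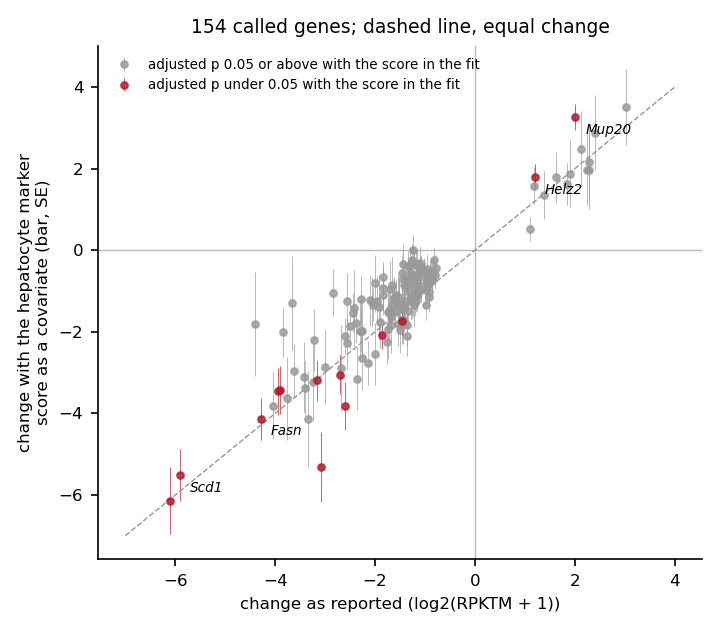
Change of each of the 154 called genes as reported (horizontal axis) against its change with the hepatocyte marker score as a covariate (vertical axis), both in log2(RPKTM + 1), with vertical bars of 1 SE for the latter. Red points are the 13 genes called in both fits, among them Scd1 at the lower left and Mup20 and Helz2 at the upper right, and grey points are genes called only without the score.

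The genes targeted by the design were examined next. Scap (NM_001103162, mm9 chr9:110235792-110287453, plus strand) was at 129 to 264 RPKTM in RevDKO with a median of 168, and at 82.2 to 149 in RevScapTKO with a median of 118. The ranges overlapped, and the change of -0.61 (SE 0.24) was not called (adjusted p = 0.355). With the hepatocyte score in the fit the estimate was 0.14 (adjusted p = 0.868), and with libraries weighted by their quality it was -0.74 and called (adjusted p = 0.0255). In the hepatocyte libraries Scap was at 447 to 640 in RevDKO and 161 to 285 in RevScapTKO, with a change of -1.24 (adjusted p = 1.87e-05). Nr1d1 averaged 18.1 and 36.7 in the macrophage isolates (change 0.94, SE 0.41, adjusted p = 0.414) and Nr1d2 averaged 46.4 and 53.6 (0.12, SE 0.36, adjusted p = 0.912), so that the REV-ERB genes, deleted in hepatocytes of both genotypes, did not pass the test.

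Among the 11 genes of the SREBP machinery 3 fell (27.3%) and none rose, with a median change of -0.46. Of all genes tested 1.10% were called lower, the share to set beside this and the following counts of falls. Srebf1 (NM_011480, mm9 chr11:60012586-60034129, minus strand), which encodes SREBP1 and is itself an SREBP target, was at 413 to 976 RPKTM in RevDKO with a median of 623, and at 43.9 to 119 in RevScapTKO with a median of 70.1. Control libraries lay at 149 to 670. The highest RevScapTKO library was thus below the lowest Control and RevDKO library, and the change was -3.15 (SE 0.27, adjusted p = 5.75e-06). Insig1, which retains SCAP in the endoplasmic reticulum, fell from a median of 170 (85.7 to 216) to 29.1 (21.9 to 61.8), a change of -2.14 (SE 0.31, adjusted p = 0.00153). Insig2, its paralog, fell by 1.24 (SE 0.29, adjusted p = 0.0491) with overlapping ranges, and this call was lost in 10 of the 12 fits that left out 1 library and without the 3 libraries that stood apart (adjusted p = 0.0722). With the hepatocyte score in the fit the Insig2 estimate was -0.0034 (adjusted p = 0.998). Srebf2, which encodes SREBP2, averaged 70.2 and 54.3 (-0.30, SE 0.26, adjusted p = 0.665), and the genes of the proteases that cleave SREBPs, Mbtps1 (0.20, adjusted p = 0.747) and Mbtps2 (0.97, adjusted p = 0.614), did not pass either.

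The promoters of the falling lipid genes were read from the mm9 genome, as 300 bases before the transcript start given in the table. They were searched on both strands for TCACNCCAC, a form of the sterol regulatory element, and for CCAAT, the box bound by NF-Y, a factor that binds next to SREBPs at many of their targets. The first motif was in 2 of the 140 promoters of lower genes (1.43%), those of Acss2 and Ehhadh, and in 141 of 12725 promoters of genes tested (1.11%). The CCAAT box was in 24 of the 34 promoters of lower genes that belonged to the lists of SREBP machinery, fatty acid synthesis, cholesterol synthesis and lipoprotein uptake (70.6%). It was in 12 of the 29 promoters of members of these lists that were not called (41.4%), in 52 of the other 106 lower genes (49.1%) and in 39.0% of all promoters. These shares are a description, and a match is not evidence of binding. The promoters of Sqle (mm9 chr15:59146347-59146646, plus strand), Fasn (chr11:120685862-120686161, minus strand) and Acss2 (chr2:155343479-155343778, plus strand) are shown 5′ to 3′ because the first 2 carry more than 1 CCAAT box and the last also carries the longer motif. They were chosen after the search, and capitals mark the matches on either strand.
Sqle: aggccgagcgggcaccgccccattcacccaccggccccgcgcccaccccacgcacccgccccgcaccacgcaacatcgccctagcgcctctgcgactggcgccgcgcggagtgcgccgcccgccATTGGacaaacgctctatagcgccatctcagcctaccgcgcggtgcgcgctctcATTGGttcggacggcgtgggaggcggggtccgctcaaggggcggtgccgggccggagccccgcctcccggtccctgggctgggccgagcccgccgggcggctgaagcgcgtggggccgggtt
Fasn: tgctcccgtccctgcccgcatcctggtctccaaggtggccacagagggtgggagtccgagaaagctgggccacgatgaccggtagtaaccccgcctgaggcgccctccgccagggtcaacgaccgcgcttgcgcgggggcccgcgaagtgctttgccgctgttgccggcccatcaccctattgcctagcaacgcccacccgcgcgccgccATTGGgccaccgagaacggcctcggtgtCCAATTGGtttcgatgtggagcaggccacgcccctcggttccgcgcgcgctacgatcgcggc
Acss2: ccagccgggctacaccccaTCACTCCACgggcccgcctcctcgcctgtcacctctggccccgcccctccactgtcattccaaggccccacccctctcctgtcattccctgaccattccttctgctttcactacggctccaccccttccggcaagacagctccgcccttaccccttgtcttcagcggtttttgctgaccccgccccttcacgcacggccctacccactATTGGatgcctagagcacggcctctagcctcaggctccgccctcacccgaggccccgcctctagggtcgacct
In Fasn the boxes that begin 62 and 59 bases before the start overlap and appear as 1 run of capitals.

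Fatty acid and triglyceride synthesis was among the lists with most falls. Of its 23 genes, all tested, 16 (69.6%) fell and none rose, with a median of -2.34 over the list against 0.05 over all genes. With the hepatocyte score in the fit 4 were called and the median was -1.26, and without the 3 libraries that stood apart 15 were called. Acly, which makes cytosolic acetyl-CoA from citrate, fell from a mean of 815 to 230 RPKTM (-1.86, SE 0.20). Acss2, which makes it from acetate, fell by 2.45, and the acetyl-CoA carboxylases Acaca and Acacb by 1.83 and 3.25. Fasn (NM_007988, mm9 chr11:120667272-120685861, minus strand), the fatty acid synthase, was at 1661 to 4707 RPKTM in RevDKO with a median of 2675. It was at 70.8 to 233 in RevScapTKO with a median of 140. All RevScapTKO libraries lay below the lowest Control library (386), and the change was -4.29 (SE 0.28, adjusted p = 3.82e-07).

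Scd1 (NM_009127, mm9 chr19:44468940-44482199, minus strand), the desaturase that makes oleate, had the smallest p of all genes. In RevDKO it was at 2357, 1661 and 4074 RPKTM at ZT16 and at 2643, 6041 and 2232 at ZT22. In RevScapTKO it was at 77.9, 76.4 and 19.5 at ZT16 and at 48.3, 41.3 and 44.2 at ZT22. The lowest RevDKO library was thus far above the highest RevScapTKO library, and the change was -5.91 (SE 0.35, adjusted p = 1.36e-07). Control libraries lay between 488 and 2399. The paralog Scd2 averaged 31.9 in RevDKO and 52.1 in RevScapTKO and was not called (0.94, SE 0.46, adjusted p = 0.482).

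The enzymes that lengthen and desaturate fatty acids fell with Scd1. The elongase Elovl6 went from a median of 193 (108 to 342) to 15.0 (4.08 to 29.7), a change of -3.84 (SE 0.44, adjusted p = 0.000164). Elovl5, which lengthens polyunsaturated fatty acids, fell by 2.60 (adjusted p = 3.53e-05), and the desaturases Fads1 and Fads2 fell by 2.69 (adjusted p = 3.97e-05) and 2.49 (adjusted p = 0.000611). None of these groups of 6 overlapped. Me1, the malic enzyme that supplies NADPH, fell by 2.84 (SE 0.43), and Thrsp, a lipogenic protein of the liver, fell by 3.77 (SE 0.54, adjusted p = 0.00147). Further falls were those of Mid1ip1 (-2.37), Pklr (-2.05), Gpam (-1.85) and the citrate carrier Slc25a1 (-1.33). Dgat2 (-0.82), Agpat2 (-0.89), Pnpla3 (-2.34), Lpin1 (-0.31), Dgat1 (-0.22), Mlxipl (0.42) and Scd2 did not pass.

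**Figure D3:**
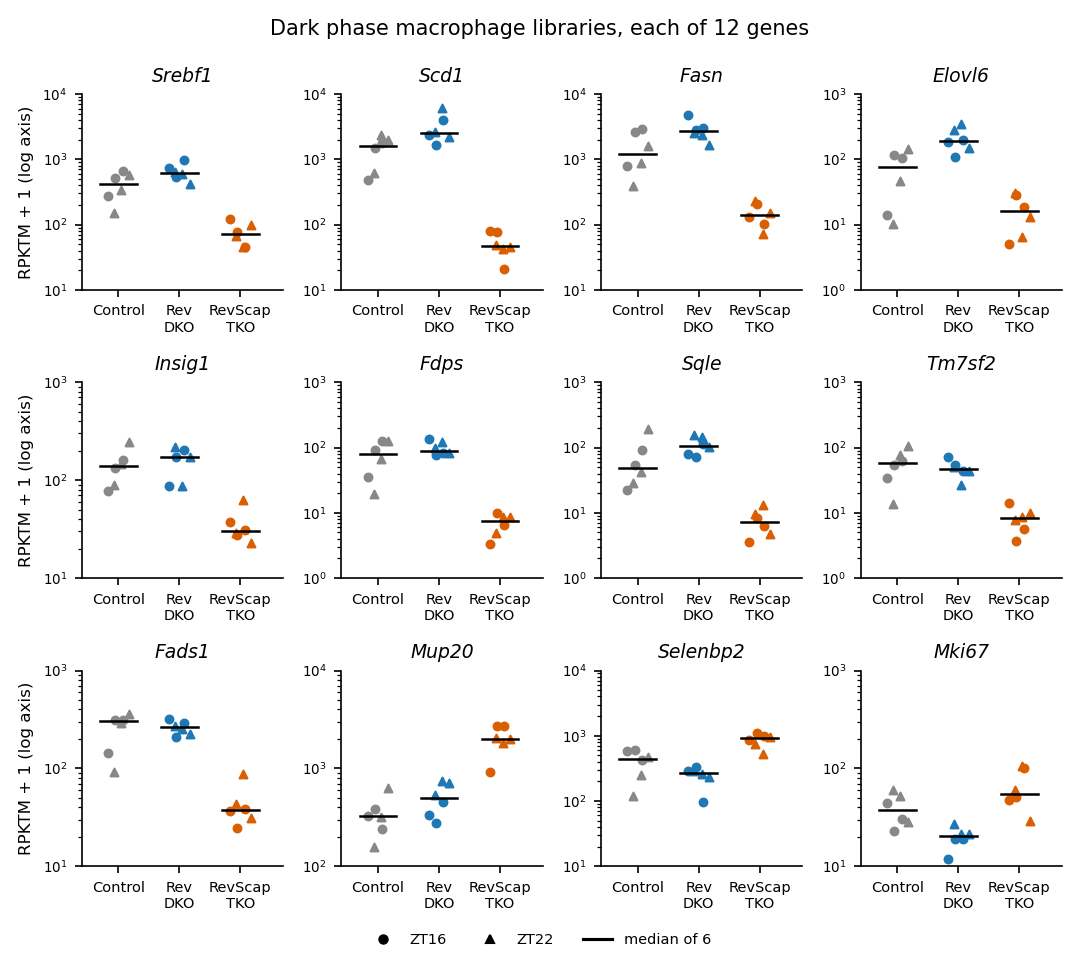
RPKTM + 1 on a log axis of 12 genes in the dark phase macrophage libraries of Control (grey), RevDKO (blue) and RevScapTKO (orange) mice, 6 each, circles for ZT16, triangles for ZT22 and a line at the median. The 9 lipid genes, from Srebf1 to Fads1, lie lower in RevScapTKO than in RevDKO without overlap, while Mup20, Selenbp2 and Mki67 lie higher.

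Genes of cholesterol synthesis fell throughout the pathway. Of 18 genes tested (Hmgcs1 and Idi1 did not enter the test) 12 (66.7%) fell and none rose. All 18 changes were negative, against 46.1% over all genes tested, and the median was -2.26. Fdps (NM_001253751), which makes farnesyl diphosphate, was at 76.3 to 133 RPKTM in RevDKO with a median of 89.0 and at 2.34 to 8.86 in RevScapTKO with a median of 6.52. The change was -3.90 (SE 0.33, adjusted p = 5.75e-06). Sqle (NM_009270), the squalene epoxidase, went from a median of 106 (70.1 to 155) to 6.31 (2.52 to 12.3), a change of -3.94 (SE 0.33, adjusted p = 5.75e-06). Both genes were below the lowest Control library (18.3 for Fdps and 21.3 for Sqle) in each RevScapTKO library.

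The mevalonate enzymes Pmvk (-2.25) and Mvd (-2.27) fell, as did Fdft1 (-1.44), which makes squalene, and Lss (-2.28), which closes the sterol ring. Among the later steps Cyp51 (-3.35), Tm7sf2 (-2.59), Hsd17b7 (-1.83), Ebp (-1.67) and Dhcr7 (-1.995) fell. Of the 6 genes that missed the threshold, those nearest to it were Msmo1 (-2.13, adjusted p = 0.0506), Acat2 (-2.51, adjusted p = 0.0534) and Sc5d (-1.27, adjusted p = 0.0542). Nsdhl (-2.26, adjusted p = 0.290) and Mvk (-0.46, adjusted p = 0.641) lay farther from it. The count moved with the settings, to 7 without the 3 libraries that stood apart, 3 with the hepatocyte score in the fit and 17 with quality weights.

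**Figure D4:**
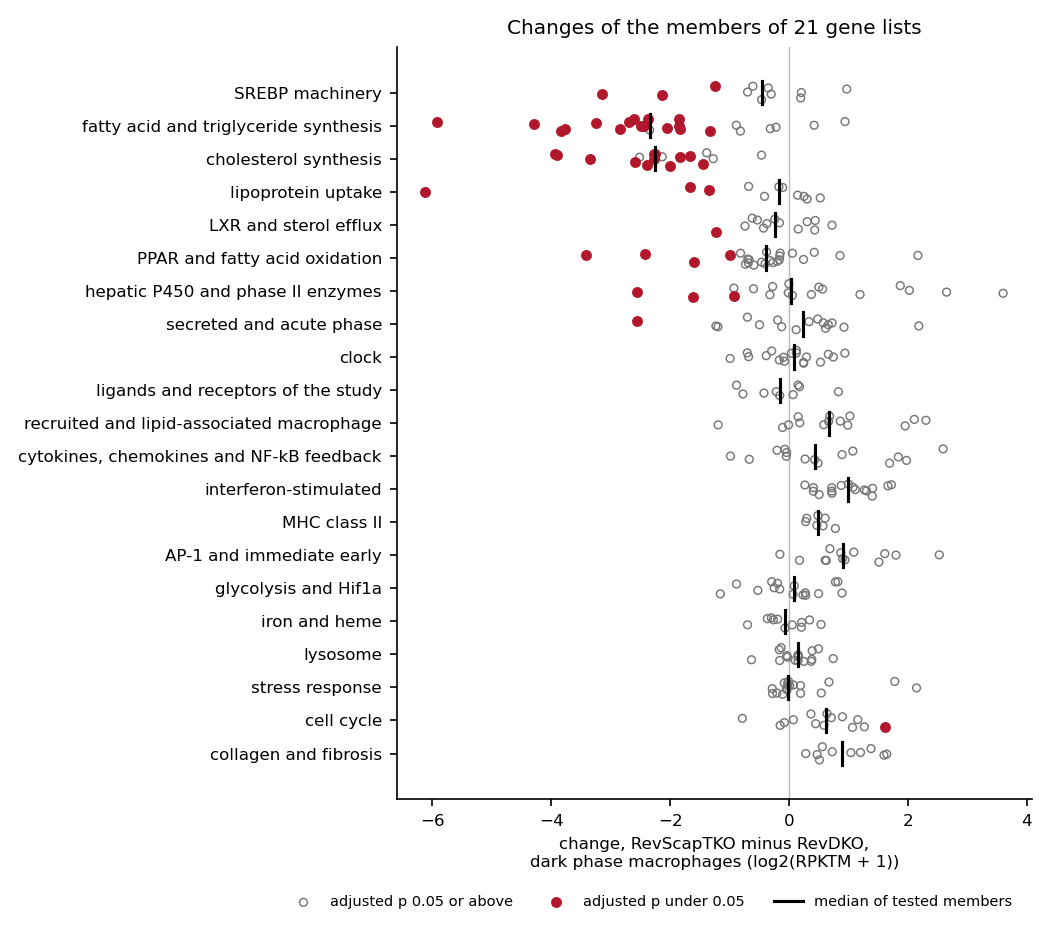
Change of each tested member of 21 gene lists (horizontal axis, RevScapTKO minus RevDKO in log2(RPKTM + 1)), filled red where called, with a line at the list's median. Called members cluster at the left in fatty acid synthesis (16 of 23, median -2.34) and cholesterol synthesis (12 of 18, median -2.26), and Mki67 is the only one at the right.

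Of 11 genes of lipoprotein uptake 3 fell (27.3%) and none rose, with a median of -0.17. Stard4, a carrier of cholesterol between membranes, was at 58.5 to 83.6 RPKTM in RevDKO with a median of 65.2 and at 9.83 to 47.2 in RevScapTKO with a median of 29.3. The groups did not overlap, and it fell by 1.35 (SE 0.29, adjusted p = 0.0306). This call was lost in 7 of the 12 fits without 1 library and without the 3 libraries that stood apart (adjusted p = 0.161). The scavenger receptors of macrophages were not called, with means of 214 and 217 for Msr1 (-0.11, SE 0.34) and 177 and 236 for Cd36 (0.14, SE 0.65).

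Of the 13 genes of the LXR pathway and sterol efflux 1 fell (7.69%), Lpcat3, which remodels phospholipids (-1.23, SE 0.24, adjusted p = 0.0135). Its call was lost without RevDKO at ZT22 replicate 1 (adjusted p = 0.0512). Abca1, the efflux pump of macrophages, averaged 926 and 691 (-0.43, SE 0.16, adjusted p = 0.301). Among 24 genes of PPAR signalling and fatty acid oxidation 4 fell (16.7%), with a median of -0.39. Ehhadh, an enzyme of peroxisomal oxidation, fell from a median of 142 (83.7 to 164) to 41.2 (30.6 to 53.1), a change of -1.59 (SE 0.21, adjusted p = 0.000735). The omega-hydroxylases Cyp4a14 (-3.41, SE 0.46, adjusted p = 0.000735) and Cyp4a10 (-2.42, SE 0.53, adjusted p = 0.0319) are similar in sequence, so the split of reads between them is uncertain. The Cyp4a10 call was lost in 7 of the 12 fits without 1 library.

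Other falls were in genes best known from hepatocytes. Of 18 hepatic P450 and phase II genes tested 3 fell (16.7%), with a median of 0.03 over the list. Cyp17a1, a steroid hydroxylase, was at 226 to 717 in RevDKO, 25.4 to 148 in RevScapTKO and 6.99 to 70.1 in Control, a change of -2.55 (SE 0.43, adjusted p = 0.00521). Cyp2c29 fell by 1.61 (SE 0.29, adjusted p = 0.00865) and Cyp2e1 by 0.93 (SE 0.19, adjusted p = 0.0213). Without the 3 libraries that stood apart Cyp17a1 (adjusted p = 0.0670) and Cyp2e1 (adjusted p = 0.110) were not called. The Cyp2e1 call was also lost in 3 of the 12 fits without 1 library. Of 16 secreted and acute phase genes tested 1 fell (6.25%), Orm1, an acute phase glycoprotein, from a median of 218 to 28.8 (-2.55, SE 0.35, adjusted p = 0.000985). Among the largest falls were also Mfsd2a, a transporter of lysophospholipids, from a median of 153 (72.6 to 184) to 7.90 (0 to 37.6), a change of -4.40 (SE 0.80, adjusted p = 0.00833), and Acpp, an acid phosphatase (-3.67, SE 0.72, adjusted p = 0.0145). The Mfsd2a call was lost without the 3 libraries that stood apart (-4.56, adjusted p = 0.101), with a pseudocount of 0.1 and without a filter, and with the hepatocyte score the estimate was -1.80 (adjusted p = 0.467). Chrna4, a subunit of the nicotinic acetylcholine receptor, was at 7.77 to 25.7 in RevDKO and was listed at 0 in 5 of the 6 RevScapTKO libraries, with 0.187 in the other. Acpp and Chrna4 entered the test only through RevDKO libraries, the group where they were high, so that their values are a description. With the hepatocyte score in the fit the calls of Cyp17a1 (-1.25, adjusted p = 0.389), Cyp2c29 (-1.17, 0.285) and Cyp2e1 (-0.76, 0.272) were lost. So were those of Orm1 (-2.28, SE 0.65, adjusted p = 0.132), Acpp (-1.29, SE 1.16, 0.577) and Chrna4 (-3.81, SE 0.82, 0.0837). The Chrna4 change was -4.04 (SE 0.43) as reported. Of the 140 lower genes 43 were in a functional list and 97 in none.

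The 14 rises were in genes without a common list. Mup20, a major urinary protein, was at 278 to 737 RPKTM in RevDKO with a median of 495 and at 920 to 2696 in RevScapTKO with a median of 2014. The RevDKO and RevScapTKO groups did not overlap, and the change was 2.01 (SE 0.27, adjusted p = 0.000735). Control libraries lay at 158 to 632, within reach of the RevDKO range. Mup14 rose by 3.03 (SE 0.51, adjusted p = 0.00476), with changes of 4.37 at ZT16 and 1.69 at ZT22. Mup genes are near-identical copies, and the split of reads between them is uncertain. Selenbp2, a selenium-binding protein, rose from a median of 270 (95.6 to 328) to 911 (517 to 1098), a change of 1.85 (SE 0.28, adjusted p = 0.00232).

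Mki67, a marker of dividing cells, was the 1 of 14 tested cell cycle genes (7.14%) that rose, against 0.110% of all genes tested. It was at 10.8 to 26.1 RPKTM in RevDKO with a median of 19.1 and at 28.2 to 104 in RevScapTKO with a median of 54.2 (1.62, SE 0.34, adjusted p = 0.0240). The call was lost in 6 of the 12 fits that left out 1 library, and it was not made without the 3 libraries that stood apart (adjusted p = 0.177). Top2a, also high in dividing cells, was not called (0.71, SE 0.42, adjusted p = 0.513). The other large rises were at low levels. Tlr9, a receptor for unmethylated DNA in immune cells, averaged 1.95 and 11.1 (2.26, SE 0.46, adjusted p = 0.0196), Map4k1, a kinase of blood cells, 0.584 and 6.57 (2.30, SE 0.49), and Col6a5, a collagen chain, 3.09 and 13.1 (1.91, SE 0.43, adjusted p = 0.0424). Slc13a5, the citrate importer, was listed at 0 in 5 of 6 RevDKO libraries and at 1.32 to 10.4 in RevScapTKO. Hist1h2bn (2.29) and Nuggc (2.12) were the remaining genes of the 10 largest rises. Slc13a5, Map4k1, Hist1h2bn and Nuggc entered the test only through RevScapTKO libraries, the group where they were high, so that their values are a description. Of these 10, Mup14, Mup20 and Selenbp2 were called whichever of the 12 libraries was left out. Without the 3 libraries that stood apart Mup14 was not called (2.62, adjusted p = 0.0695). With the hepatocyte score in the fit neither Mup14 (3.52, SE 0.93, adjusted p = 0.113) nor Selenbp2 (1.62, SE 0.51, adjusted p = 0.163) was called.

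Genes of macrophage function were examined by lists, and none of the following held a call by limma at an adjusted p under 0.05. All 17 interferon-stimulated genes had higher estimates in RevScapTKO, with a median of 0.999. Of all genes tested 46.1% had negative estimates, the share to set beside this and the following counts of signs. Irf7, a transcription factor of the interferon response, averaged 108 and 242 with groups that did not overlap (0.999, SE 0.29, adjusted p = 0.146), and Usp18, which damps interferon signalling, averaged 10.3 and 27.7 (1.40, SE 0.39, adjusted p = 0.121). Of the 17, 4 were called higher with quality weights and 1 in a fit of all 36 macrophage libraries. Those settings called 133 and 33 of all 12740 genes higher. Without the 3 libraries that stood apart 0 of the 17 were called. With the hepatocyte score in the fit 0 were called, the median was 0.23 and Irf7 was at 0.44 (adjusted p = 0.672). All 7 MHC class II genes also had positive estimates, with a median of 0.49, led by Cd74 (0.78, SE 0.33, adjusted p = 0.393), which turned to -0.81 with the hepatocyte score in the fit. The dendritic cell score, though not its 2 most abundant markers, moved with these lists, and its part in them was not tested. All 10 tested collagen and fibrosis genes were positive, with a median of 0.88. Col3a1 (1.04, SE 0.25, adjusted p = 0.0514) and Col1a1 (1.64, SE 0.41, adjusted p = 0.0696) were nearest to the threshold. With quality weights 3 of the 10 were called higher, and without the 3 libraries that stood apart 0 were.

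Among 15 tested cytokine and chemokine genes the median was 0.43. Ccl2, a chemokine that draws monocytes, was at a mean of 0.272 in RevDKO and 4.16 in RevScapTKO without overlap (1.98, SE 0.47, adjusted p = 0.0547), a level at which the value rests on few reads. Ccl2 and Gpnmb (below) entered the test only through RevScapTKO libraries, the group where they were high, so that their values are a description. Arg1 averaged 539 and 346 (-0.67, SE 0.19, adjusted p = 0.128), and it is also among the hepatocyte markers. In 14 tested genes of recruited and lipid-associated macrophages the median was 0.67, with Spp1 (osteopontin) at 19.5 and 69.3 (2.30, SE 0.68, adjusted p = 0.159) and Gpnmb at 1.48 and 12.8 (1.95, SE 0.58, adjusted p = 0.161). Of the 14, 5 were called higher with quality weights and 1 in a fit of all 36 macrophage libraries. Those settings called 133 and 33 of all 12740 genes higher. Without the 3 libraries that stood apart 0 of the 14 were called. With the hepatocyte score in the fit 0 were called and the median was 0.21. In the light phase 1 was called higher, Gpnmb (2.88, adjusted p = 0.00108). Spp1 is also made by bile duct cells, whose marker Sox9 averaged 10.1 and 17.9 (adjusted p = 0.583). The 13 tested AP-1 and immediate early genes had a median of 0.90, with Egr1 (2.53, SE 0.69, adjusted p = 0.116) and Atf3 (1.51, SE 0.57, adjusted p = 0.314) first.

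In 16 tested genes of glycolysis and Hif1a the median was 0.08. Eno1, the enolase, averaged 117 and 61.5, and its groups did not overlap (-0.88, SE 0.23, adjusted p = 0.0789), while Pfkfb3 averaged 19.3 and 32.7 (0.89, SE 0.38, adjusted p = 0.403). The 9 tested ligand and receptor genes examined in the study had a median of -0.16, with Pdgfd at 13.7 and 6.73 (-0.77, SE 0.40, adjusted p = 0.512). Iron and heme genes (median -0.07), lysosomal genes (0.15) and stress response genes (-0.01) centred near the median of all genes. Their smallest p values were those of Ftl1 (0.54, adjusted p = 0.512) and Tfrc (-0.70, adjusted p = 0.512), of Psap (0.74, adjusted p = 0.212) and Grn (0.38, adjusted p = 0.512), and of Trib3 (2.14, adjusted p = 0.192) and Hsp90b1 (0.54, adjusted p = 0.255). Trib3 entered the test only through RevScapTKO libraries, so that its values are a description. In the clock list of 18 tested genes the median was 0.08, and Bhlhe40 (-0.99, SE 0.28, adjusted p = 0.142) and Rora (-0.70, SE 0.24, adjusted p = 0.249) came first. A p above the threshold does not show that these genes were equal between genotypes.

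The time of day was then examined. limma called no gene for a change that differed between ZT16 and ZT22, and 336 genes (2.64%) had an unadjusted p under 0.05. Of the named genes Srebf1 changed by -3.27 at ZT16 and -3.03 at ZT22, and Scd1 by -5.65 and -6.18. The smallest interaction p belonged to Rprl3, an RNA of RNase P whose copies are hard to separate, Zbtb26 and Cyp26b1, each with an adjusted p of 0.982. Without RevDKO at ZT16 replicate 3 the interaction was called for 1 gene, Rprl3 (adjusted p = 0.0189).

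In the light phase (ZT4 and ZT10) the same contrast called 97 genes (0.761%), 72 lower (0.565%) and 25 higher (0.196%). Of the 140 genes lower in the dark 134 had the same sign in the light and 41 were called lower there, with a median of -0.99, and of the 14 higher genes all had the same sign and 1 was called. No gene passed the test of the difference between phases in limma, while 480 genes (3.77%) had an unadjusted p under 0.05. Elovl6 and Me1 came first. Elovl6 fell by 3.84 in the dark and changed by -0.57 in the light, a difference of -3.27 (SE 0.66, adjusted p = 0.297). In the light RevDKO libraries its median was 15.4 RPKTM, against 193 in the dark, while in RevScapTKO the medians were 9.19 and 15.0. With a pseudocount of 5 the difference was -3.01 and passed (adjusted p = 0.0319). Me1 changed by -2.84 in the dark and -0.06 in the light (difference -2.78, SE 0.56, adjusted p = 0.297), and Fh1, the fumarase, by -1.59 and -0.28 (difference -1.32, SE 0.29, adjusted p = 0.532). Srebf1 (-3.15 and -3.18) and Fasn (-4.29 and -4.03) were close between the phases, and Scd1 changed by -5.91 and -3.35.

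The same contrast was made in the hepatocyte libraries of the dark phase, which were normalized apart, so that the values stand side by side without a test. There 1021 of 12539 genes (8.14%) were called, 535 lower (4.27%) and 486 higher (3.88%). Of the 140 genes lower in the macrophage isolate 139 were tested in hepatocytes, all 139 were lower there too and 105 were called, with a median of -1.06. Of the 14 higher genes 11 were tested, all were higher and 9 were called. Macrophage markers moved in the hepatocyte libraries too, with Clec4f at 447 and 1124 RPKTM (1.29, adjusted p = 0.00261), Csf1r at 295 and 710 (1.24, adjusted p = 0.00561) and a Kupffer score of 5.84 to 6.95 in RevDKO and 6.69 to 7.83 in RevScapTKO. Their part in the changes there was not tested. Scd1 changed by -9.47 in hepatocytes and -5.91 in the macrophage isolate, Fasn by -5.19 and -4.29, and Srebf1 by -4.33 and -3.15. In RevDKO mice 139 of the 140 lower genes had a higher level in the hepatocyte table than in the macrophage table, as did 9710 of the 12740 genes tested (76.2%). Against Control, 125 of the 140 lower genes had a higher mean in RevDKO, and 138 had a lower mean in RevScapTKO, against 50.9% and 57.5% of all genes tested. As the 140 genes were chosen for a higher level in RevDKO than in RevScapTKO, these counts are a description.

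**Figure D5:**
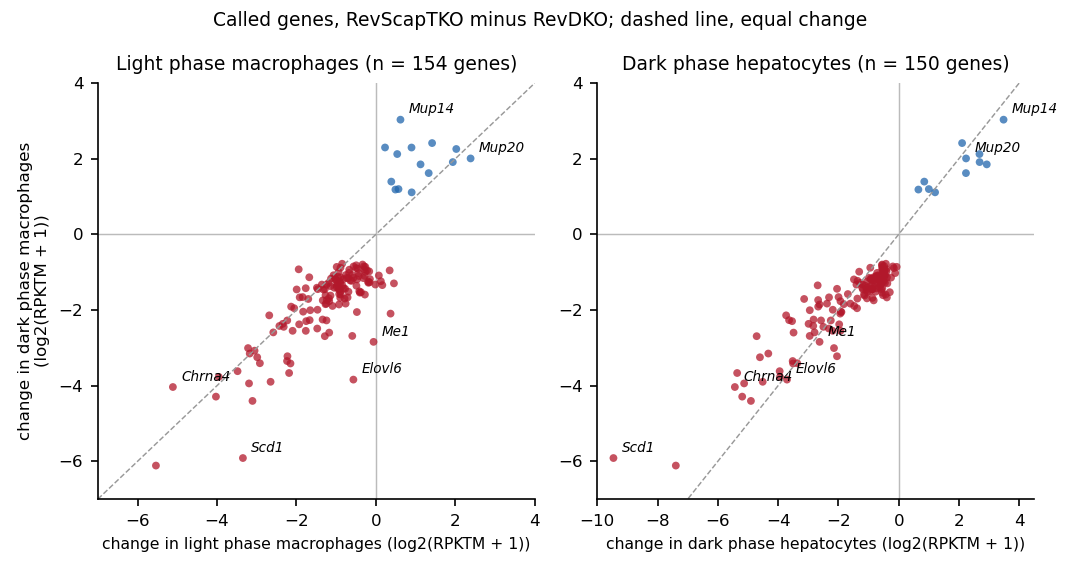
Change of the called genes in dark phase macrophages (vertical axis) against the change in light phase macrophages (left, 154 genes) and in dark phase hepatocytes (right, 150 genes), RevScapTKO minus RevDKO in log2(RPKTM + 1). Red points are lower and blue points higher genes, and the dashed line marks equal change. In hepatocytes every point has the sign it has in macrophages, and Elovl6 and Me1 lie near 0 in the light phase.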

How the data were processed

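RNA was sequenced from liver macrophages and hepatocytes after removal of ribosomal RNA, with a stranded kit. The authors aligned reads to mm9 by STAR and used HOMER to count them over RefSeq transcripts, as the study's methods and the submitters' processing notes state. Versions, and whether counting used the strand, are not given in the sources used here. The deposited values are RPKM on a larger fixed library total (RPKTM), which the authors quantile normalized within each table. Depth cannot be recovered from them. The tables of ScapKO libraries were not used. Some genes and sequences are not reported here.

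For each gene symbol the transcript of highest mean over the 12 libraries was taken, and genes over 5 RPKTM in 3 or more libraries entered the test. limma 3.58.1 (R 4.3.3) with a mean-variance trend was fitted to log2(RPKTM + 1) with genotype and ZT as terms, and p-values were adjusted by Benjamini and Hochberg over all 12740 genes at a threshold of 0.05. The fit was tested on simulated data. The interaction with ZT used the same libraries. The difference between phases used 24 libraries with a mean for each genotype and ZT. Promoters were read with Python 3.11.15.

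Named genes were the targeted genes and Srebf1, the 10 largest called rises and falls with the same sign at both times, up to 4 called members of each list by p (or the 2 with the smallest p), the 3 smallest p of the interaction and of the phase difference, and, of marker lists, up to 4 called and the 2 most abundant. Other members of the lipid lists, and other genes outside this rule, were named after their values were seen. The members and lists were chosen with earlier results of these data known. Alternatives covered the pseudocount, filter, transcript choice, scaling, trend, weights, covariates and libraries left out. The fit without the 3 libraries that stand apart was chosen after seeing the data.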

Additional observations from a re-analysis of the deposited data

Results flagged for a closer look

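In 7 of the 86 groups of 6 libraries examined for the named genes, 1 library lay far from the other 5, judged by its gap to the nearest library as a share of the group's range. Chance gives about 1 such group in 20 where the values come from a single normal distribution. Here each group joined ZT16 and ZT22, and those flagged for Slc13a5 and Chrna4 held 5 values at 0. The count therefore cannot be read against that share. In RevDKO, Acpp was lowest in ZT16 replicate 2 (0.028 RPKTM, a gap of 0.696), Mfsd2a in ZT16 replicate 1 (72.6 RPKTM, 0.647) and Selenbp2 in ZT16 replicate 3 (95.6 RPKTM, 0.727). In the same group Map4k1 was highest in ZT16 replicate 3 (2.44 RPKTM, 0.741), as was Slc13a5 (0.233 RPKTM, 1.0), which was listed at 0 in the other 5. In RevScapTKO, Orm1 was highest in ZT22 replicate 2 (107 RPKTM, 0.901) and Chrna4 in ZT22 replicate 3 (0.187 RPKTM, 1.0), which was listed at 0 in the other 5. RevDKO ZT16 replicate 3 was the library concerned in 3 of the 7 groups.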

How the results depend on the processing

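The count of 154 called genes became 24 with the hepatocyte marker score as a covariate, 515 with quality weights (133 higher and 382 lower, with all 154 among them), 11 with ZT16 alone, 27 with ZT22 alone and 94 without the 3 libraries that stand apart, the last chosen after seeing the data. The share of higher genes among those called was 9.09%, against 54.2% with the score, 25.8% with quality weights and 21.3% with all 36 macrophage libraries in the fit. Leaving out 1 library gave 108 to 160 genes, and the other alternatives 107 to 169. Same-numbered libraries had correlated deviations of -0.152 to 0.202, so the numbers were not taken to pair them, and the fit with a replicate block called 129 genes, 126 of them among the 154. The interaction with ZT was called for 0 to 1 genes without single libraries, the 1 being Rprl3 without RevDKO ZT16 replicate 3, and the difference between phases for 1 gene, Elovl6, with a pseudocount of 5. Median ratio rescaling moved the median of all genes to 0.127.

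With the hepatocyte score the estimates of genes that were not called turned for Scap (0.14), Nr1d2 (-0.54), Cd74 (-0.81), H2-Aa (-1.11), Ftl1 (-0.82), Tfrc (0.12), Psap (-0.0046) and Grn (-0.35). Nr1d2 was at -0.0033 with ZT22 alone and ranged from -0.11 to 0.40 when 1 library was left out. The cause was not tested. Of 43 named genes that were called, 28 stayed past the threshold in each of the 12 fits without 1 library. Acpp lost its call without RevScapTKO ZT22 replicate 3 (adjusted p = 0.0544) and Lpcat3 without RevDKO ZT22 replicate 1, while Nuggc, Insig2 and Apoc3 lost theirs in 10 or 11 fits. Scd1, Fasn, Fdps, Sqle, Srebf1 and Fads1 were among the 7 that stayed past it in the other 15 alternatives. Without counts, the depth behind low values cannot be given.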

Other observations

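Falls outside the lists included further genes of lipid handling, chosen after their values were seen. Acsl5, which activates fatty acids, averaged 835 RPKTM in RevDKO and 268 in RevScapTKO (-1.58, SE 0.22, adjusted p = 0.000985, without overlap), and its relative Acsl3 fell by 2.30 (adjusted p = 0.00931). Aacs, which activates acetoacetate for lipid synthesis, fell by 1.74 (adjusted p = 0.0491), and Rdh11, a retinal reductase, by 2.28 (adjusted p = 0.00046). Lipc, the hepatic lipase, fell by 1.19 and Mttp, which loads lipid onto apolipoprotein B, by 0.95. Slc27a5, which conjugates bile acids to coenzyme A, averaged 1272 and 475 (-1.46), and Cyp39a1, an oxysterol hydroxylase, 83.2 and 18.9 (-2.10). Hamp2, a paralog of hepcidin, averaged 39.2 and 2.99 (-3.41), H2-Q10, a secreted class I molecule of the liver, 887 and 225 (-2.05), and Inmt, a methyltransferase, 171 and 28.1 (-3.01). Among the remaining rises, Rnf213 averaged 682 and 1425 (1.11, adjusted p = 0.00633) and Nfkb2, an NF-kB subunit, 23.3 and 53.0 (1.18, adjusted p = 0.0307), both without overlap. With the hepatocyte score in the fit Slc27a5 alone of the genes in this paragraph was called. Lipc was then at -0.61 (adjusted p = 0.369), Mttp at -0.45 (0.523) and Rnf213 at 0.52 (0.395), while Hamp2 was at -3.39 (0.056) and Nfkb2 at 1.58 (0.131). Without the 3 libraries that stood apart Mttp (adjusted p = 0.29), Cyp39a1 (0.0823) and Nfkb2 (0.104) were not called.

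Of 175 tested genes within 10 Mb of Scap on chromosome 9, 7 were called (4%), 5 of them lower, against 1.21% of all genes. Rpl29, a ribosomal protein gene, averaged 36.2 and 2.01 (-3.62, SE 0.37, adjusted p = 4.78e-05), with -3.48 in the light phase and -3.95 in the hepatocyte table. The lower genes also included Glb1 (-1.77), Abhd14b (-1.62) and Acpp (-3.67), and Col6a5 (1.91) and Tlr9 (2.26) were higher. As Acpp entered the test only through RevDKO libraries, its values are a description. All but Tlr9, which did not enter the test there, were also called in the same direction in the hepatocyte table. The genotype around Scap in these mice was not analysed here.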
